A study of Mus musculus with 6 samples.

Results

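The costimulatory receptors of T cells were followed in RNA-seq libraries labelled as mouse T cells, from cocultures with control or DB2313-treated myeloid cells. The 10 receptor genes, Cd28, Icos, Tnfrsf4, Tnfrsf9, Tnfrsf18, Cd27, Cd226, Cd2, Cd69 and Cd44, were taken by gene symbol from a table of 54532 genes. Each was found once and passed the filter on low counts, as did 14883 genes in all. GEO's labels describe the samples as primary T cells kept with DC cells, untreated in the control group and given DB2313 beforehand in the DB2313 group, with 3 samples in each. The study's methods describe CD8T cells from mouse spleen, isolated with a kit, then stimulated with beads that carry anti-CD3 and anti-CD28 antibodies and placed with interferon (IFN)-γ-activated macrophages, so the sources differ on which cells were added. DB2313, which inhibits the transcription factor Spi1, was applied to the added cells and not to the T cells, and the beads and the coculture were common to both groups. The antibody on the beads binds the protein of one of these receptors, Cd28, in both groups. Strain, sex and age of the mice used for these cultures, and whether the 3 samples came from separate cultures, are not given in the sources used here, so the p-values measure the spread between these samples, which may be technical.

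A T cell responds fully when its antigen receptor and a costimulatory receptor are engaged together. Cd28 and Icos belong to the immunoglobulin superfamily and bind ligands on antigen-presenting cells, Cd80 and Cd86 for Cd28 and Icosl for Icos. Tnfrsf4 (OX40), Tnfrsf9 (CD137), Tnfrsf18 (GITR) and Cd27 belong to the tumor necrosis factor (TNF) receptor superfamily and signal through TRAF adaptors to NF-κB. Cd226 binds Pvr and Nectin2, ligands that it shares with the inhibitory receptor Tigit, and Cd2 is an adhesion receptor whose mouse ligand is Cd48. Cd69 appears early after activation and holds cells in tissue by opposing the sphingosine phosphate receptor S1pr1, and Cd44 binds hyaluronan and Spp1 and is carried by activated T cells and by many myeloid cells.

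The library totals ranged from 16611975 to 18596217 counts. A list of 19 T cell genes (Cd3d, Cd3e, Cd8a, Lck and others, none of them among the 10 receptors) took 0.256% ± 0.00104 of the control counts and 0.41% ± 0.00395 of the DB2313 counts, and 12 macrophage genes took 1.01% ± 0.0133 and 0.349% ± 0.005 (SD, n = 3 each). Lyz2 made up most of the macrophage counts in both groups. The libraries thus held RNA of genes typical of macrophages beside that of T cells. Of the T cell genes 18 rose and 1 did not pass the test, with a median log2 fold change of 0.59, while all 12 macrophage genes fell. In these bulk libraries, fewer cells of a type and less RNA per cell cannot be told apart. The 10 receptors together took between 0.113% and 0.117% of the counts in the control libraries and between 0.139% and 0.141% in the DB2313 libraries.

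Of the 10 receptors, 7 rose in the DB2313 group, 2 fell and 1 did not pass the test. The rises ran from 1.26-fold in Tnfrsf4 to 1.596-fold in Cd27. They covered all 4 immunoglobulin superfamily receptors (Cd28, Icos, Cd226 and Cd2) and 3 of the 4 TNF receptor family members (Tnfrsf4, Tnfrsf18 and Cd27). Tnfrsf9, the fourth TNF receptor family member, and Cd44 fell, to 0.724 and 0.657 of their control levels. When the libraries were scaled to T cell genes, only Cd27 of the 7 was still called higher, and not under every alternative. On that scale Icos and Tnfrsf4 were called lower, and Cd28, Tnfrsf18, Cd226 and Cd2 did not pass the test. Cd69 was at 41.7 ± 0.712 and 39.4 ± 2.95 CPM (SD, n = 3 each). CPM are counts relative to the size of the library, scaled by TMM on the assumption that the bulk of genes is stable, and genes were called at a Benjamini-Hochberg adjusted p below 0.05 over all tested genes with edgeR's quasi-likelihood test. By the same rule 20.8% of all tested genes rose and 24.6% fell. The rises made up 45.8% of all calls, or 63.4% with library size scaling and 58.2% with upper quartile scaling, which moved the median of all tested genes to 0.114 and 0.083 on the log2 scale. The median log2 fold change was 0.51 over the 10 receptors and 0.019 over all tested genes. The DB2313 libraries did not overlap the control libraries in 9 of the 10 receptors, against 53.1% of all tested genes. None of the receptors changed by more than 1 on the log2 scale, which 6.67% of the tested genes did with an adjusted p below 0.05 in edgeR.

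**Figure D1:**
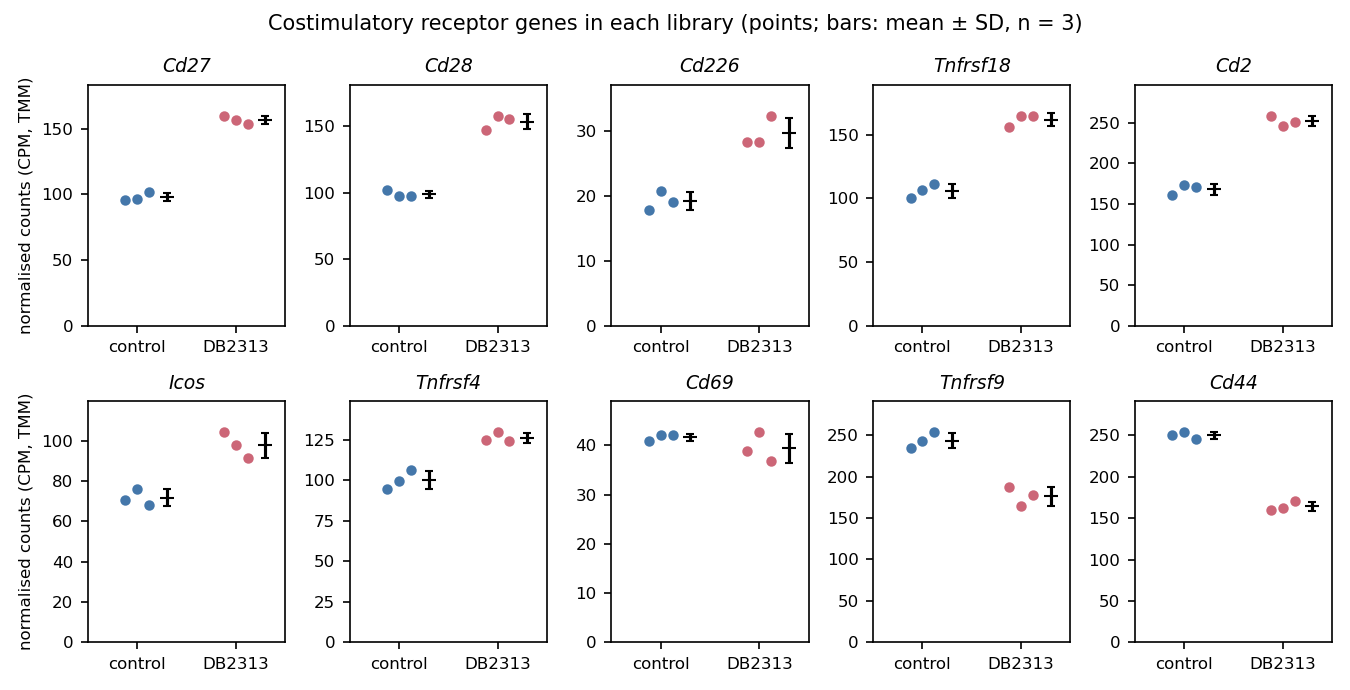
Normalised counts (CPM, TMM) of the 10 receptor genes in each of the 3 control (blue) and 3 DB2313 (red) libraries, in order of their log2 fold change, with the mean and SD of each group as black bars and every axis starting at 0. The groups are apart in every panel except that of Cd69, and the DB2313 libraries are the lower ones for Tnfrsf9 and Cd44.

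Cd28 (ENSMUSG00000026012, chromosome 1 from 60716800 to 60773359, plus strand) encodes the main costimulatory receptor of naive T cells. Coordinates are those of the deposited table, which for 98.3% of the shared genes are those of GENCODE M21 on GRCm38, and for 9 of the 10 receptors, Cd226 being the exception. It was at 102, 97.3 and 97.6 CPM in the control libraries and at 147, 158 and 156 CPM in the DB2313 libraries. All 3 DB2313 libraries were above the 3 control libraries, and the group means were 98.9 ± 2.49 and 153 ± 5.67 CPM (SD, n = 3 each). In edgeR the log2 fold change of Cd28 came to 0.63 (adjusted p = 5.06e-12, standard error 0.041). Icos (ENSMUSG00000026009, from 60977927 to 61000320 on the same strand) encodes a Cd28 relative that T cells display after activation. Its libraries were at 70.8, 76.2 and 68.1 CPM in the control group and 104, 97.7 and 91.5 CPM in the DB2313 group. The groups did not overlap, and the log2 fold change was 0.45 (adjusted p = 2.14e-07, standard error 0.053) in edgeR. Between these genes lies Ctla4, which encodes the inhibitory receptor that competes with Cd28 for Cd80 and Cd86. Ctla4 begins 113640 bases after the end of Cd28 and ends 62094 bases before Icos, with no other protein-coding gene in between, and its log2 fold change was 0.69 (adjusted p = 9.79e-10, standard error 0.059) in edgeR.

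Cd226 (ENSMUSG00000034028, chromosome 18 from 89197431 to 89270201, plus strand) and Cd2 (ENSMUSG00000027863, chromosome 3 from 101275899 to 101287939, minus strand) encode receptors that join adhesion to costimulation. Cd226 had the lowest counts of the 10, from 313 to 356 in the control libraries and from 484 to 595 in the DB2313 libraries. In CPM these were 17.9, 20.7 and 19.1 against 28.4, 28.4 and 32.3. Its log2 fold change of 0.63 (adjusted p = 1.57e-06, standard error 0.085) in edgeR had the largest standard error of the 10. Cd2 was at 161, 173 and 171 CPM in the control libraries and at 258, 246 and 251 CPM in the DB2313 libraries. Its groups lay apart, with a log2 fold change of 0.58 (adjusted p = 5.49e-12, standard error 0.037) in edgeR.

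Of the TNF receptor family, Cd27 (ENSMUSG00000030336, chromosome 6 from 125232622 to 125237010, minus strand), the receptor for Cd70, showed the largest rise of the 10 receptors. It was at 95.9, 96.8 and 102 CPM in the control libraries and at 159.6, 157 and 153 CPM in the DB2313 libraries, and its log2 fold change was 0.67 (adjusted p = 9.31e-13, standard error 0.039) in edgeR. The whole span of Cd27 is overlapped by Vamp1 on the opposite strand, which had between 588 and 815 counts and a log2 fold change of 0.13 (standard error 0.068). Without strand in the counting, reads from stretches where exons of the pair coincide cannot be told apart. Whether their exons coincide was not examined. Tnfrsf18 (ENSMUSG00000041954, chromosome 4 from 156026164 to 156028895, plus strand), which regulatory and activated T cells carry, was at 101, 106 and 111 CPM in the control libraries and at 156, 165 and 165 CPM in the DB2313 libraries. Its log2 fold change was 0.61 (adjusted p = 1.88e-11, standard error 0.042) in edgeR. Gm16008 on the opposite strand overlaps its span over 2732 bases and had between 13 and 36 counts. Tnfrsf4 (ENSMUSG00000029075, from 156013843 to 156016612), which sustains activated T cells, lies 9551 bases from Tnfrsf18 on the same strand. Tnfrsf4 was at 94.8, 99.7 and 106 CPM in the control libraries and at 125, 129.5 and 124 CPM in the DB2313 libraries. Its log2 fold change was 0.33 (adjusted p = 1.06e-06, standard error 0.044) in edgeR, the smallest of the 7 rises.

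Tnfrsf9 (ENSMUSG00000028965, chromosome 4 from 150914562 to 150946102, plus strand) encodes a receptor that activated T cells, but also some dendritic and other myeloid cells, display. Of the 4 TNF receptor family members among the 10, it was the one that fell. It was at 234, 242 and 253 CPM in the control libraries and at 187, 164 and 178 CPM in the DB2313 libraries. Every DB2313 library was below every control library, and the log2 fold change was -0.47 (adjusted p = 3.58e-09, standard error 0.043) in edgeR. Camta1 overlaps the gene on the opposite strand over 28781 bases and had between 168 and 217 counts, against at least 2797 for Tnfrsf9. Cd44 (ENSMUSG00000005087, chromosome 2 from 102811141 to 102901665, minus strand) was at 250.005, 253 and 246 CPM in the control libraries and at 160.2, 162 and 171 CPM in the DB2313 libraries. The groups did not overlap, and the log2 fold change was -0.61 (adjusted p = 1.53e-12, standard error 0.036) in edgeR, the largest fall of the 10. Cd69 (ENSMUSG00000030156, chromosome 6 from 129267325 to 129275436, minus strand) was at 40.8, 42.1 and 42.1 CPM in the control libraries and at 38.8, 42.6 and 36.8 CPM in the DB2313 libraries. The DB2313 libraries spread around the control libraries, and the log2 fold change of -0.081 (adjusted p = 0.342, standard error 0.067) in edgeR had a 95% interval from -0.22 to 0.057. With library size scaling it was at 0.013.

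The promoters of Cd27, Cd44 and Tnfrsf9 are shown because these genes had the largest rise and the falls among the 10. RefSeq windows of 250 bases before to 50 bases after a transcription start of GRCm38.p6 were given for 5 of the 10 receptors (Cd44, Tnfrsf9, Tnfrsf4, Tnfrsf18 and Cd27), and Tnfrsf9 has 2 of them, at different starts inside the gene. The windows were searched on both strands for 13 short patterns of 12 elements, and capitals mark every match. The patterns were AP-1 (TGANTCA), NF-κB (GGGNNTTTCC and the shorter GGGNTTTCC, which was added after the first had been seen to match), PU.1, the protein of Spi1 (AGGAAGT), ETS (CCGGAAGT), RUNX (TGTGGT), NFAT (GGAAAAT), CRE (TGACGT), the TATA box (TATAAA), SP1 (GGGCGG), E-box (CACGTG), TCF (CTTTGAA) and IRF (GAAANNGAAA).
Cd27, chr6:125236978-125237277, minus strand: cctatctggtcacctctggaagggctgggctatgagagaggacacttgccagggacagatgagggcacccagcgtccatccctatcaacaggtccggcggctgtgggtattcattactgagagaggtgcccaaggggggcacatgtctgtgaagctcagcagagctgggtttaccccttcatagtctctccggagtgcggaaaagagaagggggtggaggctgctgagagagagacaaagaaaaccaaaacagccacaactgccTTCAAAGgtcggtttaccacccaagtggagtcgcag
Cd44, chr2:102901616-102901915, minus strand: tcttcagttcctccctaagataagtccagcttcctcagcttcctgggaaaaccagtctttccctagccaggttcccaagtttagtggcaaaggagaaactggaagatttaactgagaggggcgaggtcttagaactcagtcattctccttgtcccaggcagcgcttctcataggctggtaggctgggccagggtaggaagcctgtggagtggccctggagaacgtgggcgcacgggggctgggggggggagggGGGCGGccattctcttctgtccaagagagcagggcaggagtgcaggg
Tnfrsf9, first start, chr4:150919905-150920204, plus strand: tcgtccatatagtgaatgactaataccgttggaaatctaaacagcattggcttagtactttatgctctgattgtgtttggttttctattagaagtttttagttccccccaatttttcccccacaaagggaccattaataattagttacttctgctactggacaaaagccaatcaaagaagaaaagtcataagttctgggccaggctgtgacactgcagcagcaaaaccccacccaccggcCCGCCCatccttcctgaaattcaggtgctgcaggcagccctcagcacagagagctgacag
Tnfrsf9, second start, chr4:150927749-150928048, plus strand: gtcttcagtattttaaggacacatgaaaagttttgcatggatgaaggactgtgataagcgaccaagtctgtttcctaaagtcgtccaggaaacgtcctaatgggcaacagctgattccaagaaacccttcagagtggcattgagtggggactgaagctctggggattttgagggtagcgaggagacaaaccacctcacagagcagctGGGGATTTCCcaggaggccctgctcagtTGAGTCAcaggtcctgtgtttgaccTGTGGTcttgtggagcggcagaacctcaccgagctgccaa

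Of the 6 windows, 5 held a match. The second Tnfrsf9 start had GGGGATTTCC, which holds the shorter NF-κB pattern too, beginning 43 bases before the start, TGAGTCA beginning 15 bases before it and TGTGGT beginning 10 bases after it. Over the 32851 windows of the RefSeq table, the NF-κB patterns were found in 1.63% and 1.68%, AP-1 in 7.81% and RUNX in 16.8%. The first Tnfrsf9 start and Cd44 each held an SP1 match (35.7% of all windows), Tnfrsf4 held an E-box (7.15%) and Cd27 a TCF match (5.14%), while that of Tnfrsf18 held none. The PU.1 (9.35%), ETS (3.89%), NFAT (4.82%), CRE (7.51%), TATA (13.6%) and IRF (3.44%) patterns were in none of the 6 windows. The matches describe these letters, and the RNA-seq counts do not show which start was used.

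Levels of different genes were compared per length, as RPKM, the CPM divided by the gene length in kilobases that the table gives. In the control group Cd2 was the most abundant receptor mRNA at 96.6 ± 3.78 RPKM, followed by Tnfrsf9 at 89.4 ± 3.45, Tnfrsf4 at 73.4 ± 4.21 and Tnfrsf18 at 69.6 ± 3.48 RPKM (SD, n = 3 each). The libraries overlapped between Cd2 and Tnfrsf9 and between Tnfrsf4 and Tnfrsf18, and did not between the other neighbours in this order. Cd27, Cd44, Icos, Cd28, Cd226 and Cd69 came next, from 42.1 ± 1.31 down to 6.4 ± 0.109 RPKM. In the DB2313 group Cd2 was again first, at 145 ± 3.55 RPKM. Tnfrsf9 was the fifth, at 64.7 ± 4.24 RPKM, behind Tnfrsf18, Tnfrsf4 and Cd27, and its libraries overlapped those of Cd27. Cd44 went from the sixth to the eighth place, where its libraries overlapped those of Cd28, at 24.2 ± 0.841 and 25.1 ± 0.926 RPKM. Cd69 was last in both groups.

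**Figure D2:**
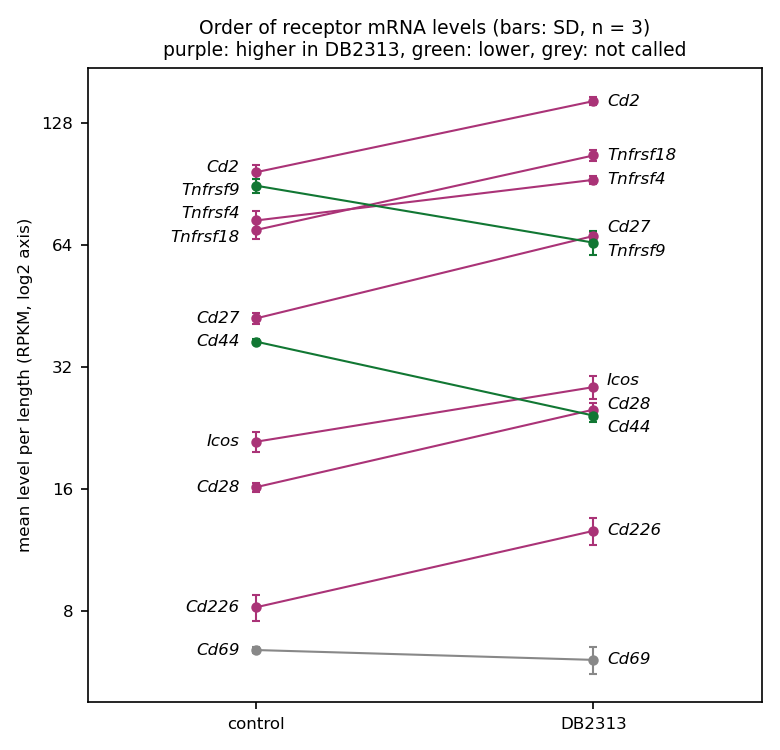
Mean level per length (RPKM, log2 axis) of each receptor gene in the control and DB2313 groups, with the SD of 3 libraries as bars. The lines of Tnfrsf9 and Cd44, in green, run down and cross those of receptors that rose, in purple, while Cd69, in grey, did not pass the test.

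Since the T cell genes took a larger share of the DB2313 libraries, each receptor was also tested with the libraries scaled to the summed counts of the 19 T cell genes. On this scale the median over all tested genes was -0.56, and 1.18% of the tested genes were called higher and 77.2% lower. Of the receptors, 5 were lower relative to the T cell genes, 1 was higher and 4 did not pass the test. Cd28, Tnfrsf18, Cd226 and Cd2, all of which rose under TMM, were at 0.049, 0.026, 0.042 and -0.0019 on the log2 scale. Their 95% intervals ran from -0.034 to 0.13 in Cd28, from -0.061 to 0.11 in Tnfrsf18, from -0.13 to 0.22 in Cd226 and from -0.081 to 0.077 in Cd2. Cd27 was at 0.091 (adjusted p = 0.0439 in edgeR). This call was lost with the Cd3 genes as the reference (0.026), with the replicate number as a block (0.090), without the filter on low counts (0.091), with the Cd8 genes as the reference (0.095), and in 4 of the 6 fits that left out 1 library each (without control replicate 1 or 2, or DB2313 replicate 1 or 2), where the value lay between 0.072 and 0.091.

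Icos and Tnfrsf4 rose under TMM but were lower relative to the T cell genes, at -0.14 (adjusted p = 0.0267) and -0.25 (adjusted p = 2.22e-05, both in edgeR). The Icos call was lost without control replicate 2 (-0.091), DB2313 replicate 2 (-0.14) or DB2313 replicate 3 (-0.088). Cd69, which did not pass under TMM, was at -0.67 (adjusted p = 4.96e-09 in edgeR). Tnfrsf9 was at -1.05 and Cd44 at -1.19, with adjusted p of 1.09e-15 and 3.28e-18 in edgeR, and both stayed lower under every scaling tried. The 19 T cell genes themselves ranged from -0.50 in Tespa1 to 0.37 in Sh2d1a on this scale, a wider range than that of the 7 receptors that rose under TMM.

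**Figure D3:**
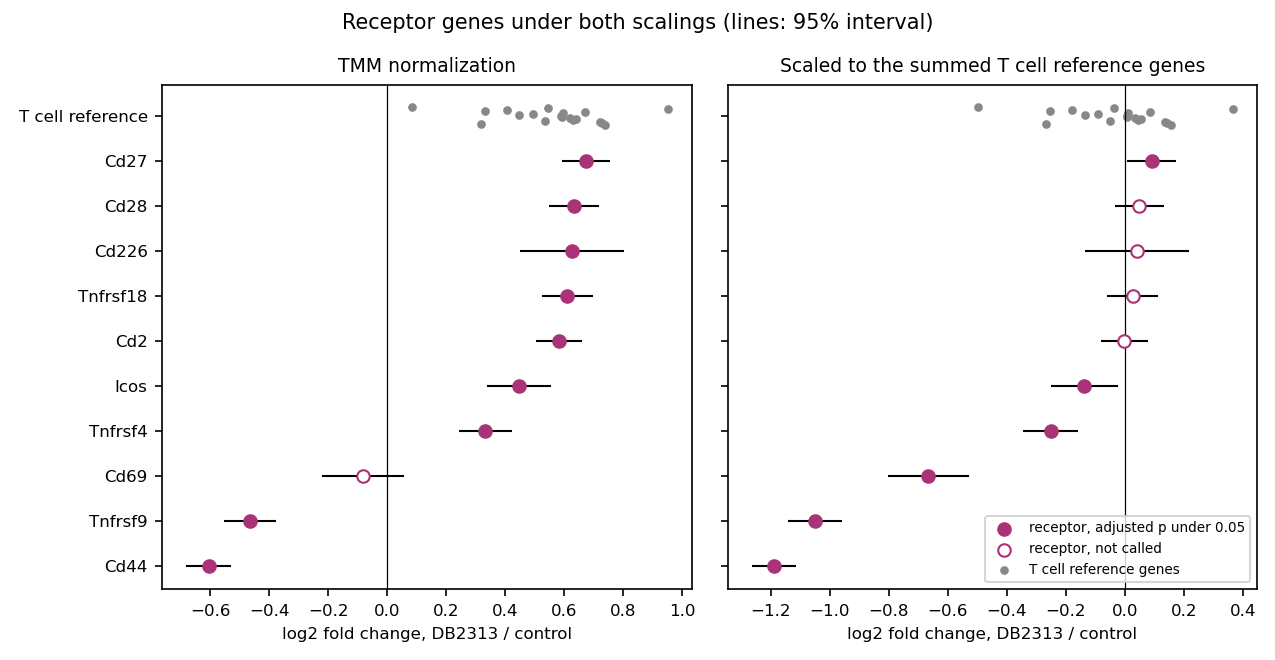
Log2 fold change (DB2313 over control) of each receptor with its 95% interval, under TMM normalization (left) and with libraries scaled to the summed T cell genes (right), with filled points for an adjusted p below 0.05 and grey points for the 19 T cell genes. Under TMM 7 receptors lie to the right of 0, and on the right-hand scale Cd28, Tnfrsf18, Cd226 and Cd2 have intervals that include 0 while Cd69, Tnfrsf9 and Cd44 lie furthest to the left.

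Ratios of 2 receptors within a library do not depend on the scaling. They use the same counts as the fold changes above and are not separate support for them. Of 7 ratios chosen for comparison, 3 had groups that did not overlap. Each of these had p = 0.1 in a two-sided exact permutation test, the smallest that 3 against 3 libraries allow (adjusted over the 7 ratios, 0.23). Tnfrsf9 had 2.45, 2.51 and 2.49 counts per Cd27 count in the control libraries and 1.17, 1.047 and 1.16 in the DB2313 libraries, a difference of -1.14 on the log2 scale. The neighbouring genes Tnfrsf4 and Tnfrsf18 went from 0.942, 0.937 and 0.955 to 0.799, 0.786 and 0.755 counts of the first per count of the second, a log2 difference of -0.28. Cd69 had 0.163, 0.166 and 0.171 counts per Cd44 count in the control libraries and 0.242, 0.264 and 0.215 in the DB2313 libraries, a log2 difference of 0.52. The other ratios overlapped between the groups. Cd28 had 2.07, 2.21 and 2.05 counts per Ctla4 count in the control libraries and 1.83, 2.23 and 2.03 in the DB2313 libraries (p = 0.5, exact permutation test). Cd226 to Tigit differed by -0.21 on the log2 scale (p = 0.4), Cd28 to Icos by 0.19 (p = 0.3) and Cd2 to Cd28 by -0.052 (p = 0.6, all exact permutation tests). Without 1 library, Cd226 to Tigit ranged from -0.42 (without DB2313 replicate 3) to -0.043 (without DB2313 replicate 2), and was at -0.098 without control replicate 1. Cd2 to Cd28 ranged from -0.10 to -0.016 and Cd28 to Icos from 0.13 to 0.26.

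**Figure D4:**
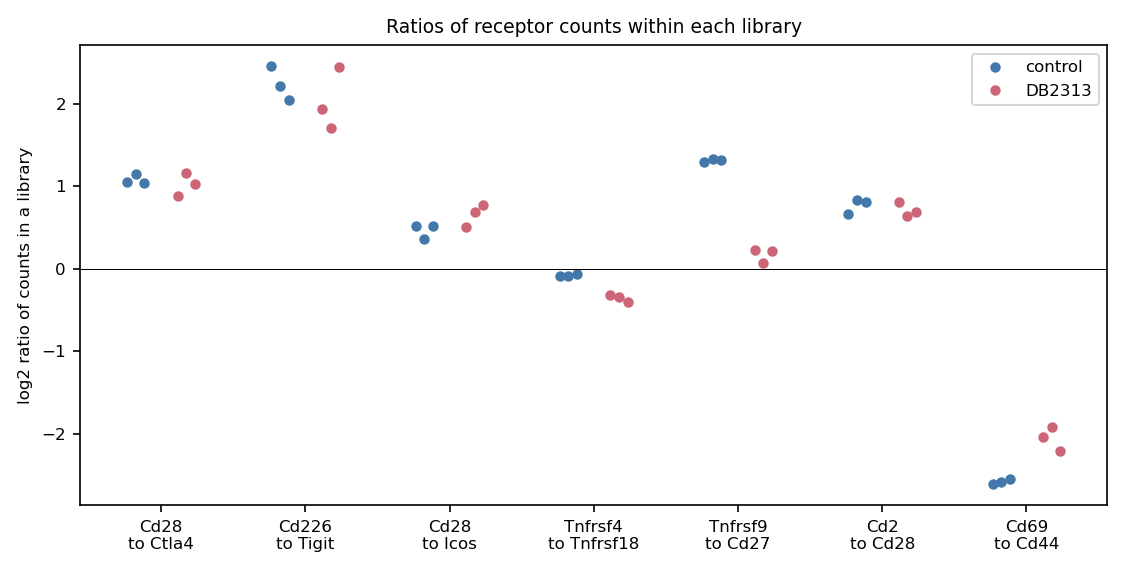
Log2 ratio of the counts of 2 receptor genes in each library, for the 7 pairs on the horizontal axis, in 3 control (blue) and 3 DB2313 (red) libraries. The groups are apart for Tnfrsf9 to Cd27, Tnfrsf4 to Tnfrsf18 and Cd69 to Cd44.

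The ligands of these receptors were counted in the same libraries. Of 11 ligand genes, 10 were tested, 6 fell and none rose, and the median log2 fold change was -0.43. Over all tested genes 24.6% fell and 20.8% rose. Tnfsf18, the ligand of Tnfrsf18, had at most 8 counts in a library and was not tested. Of the B7 ligands of Cd28, Cd86 went from 183 ± 4.15 to 117 ± 2.84 CPM (SD, n = 3 each), with a log2 fold change of -0.64 (adjusted p = 1.02e-12, standard error 0.038) in edgeR. Cd80, the other B7 ligand, was at 92.4 ± 4.04 and 88.1 ± 3.05 CPM (SD, n = 3 each) and did not pass the test, at -0.069 (standard error 0.046). Icosl fell by 0.27, Tnfsf4, the ligand of Tnfrsf4, fell by 0.58, Cd70, the ligand of Cd27, fell by 0.90, and Nectin2 fell by 0.83 on the log2 scale. Spp1, a secreted ligand of Cd44 that macrophages make, went from 139 ± 2.08 to 74.7 ± 4.77 CPM (SD, n = 3 each). Tnfsf9, Pvr and Cd48, the ligands of Tnfrsf9, Cd226 and Cd2, were at -0.12 (standard error 0.17), 0.062 (standard error 0.074) and 0.038 (standard error 0.04) and did not pass the test. Cd48 passed with library size scaling (0.13) and upper quartile scaling (0.10).

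Among 9 inhibitory receptors, 5 rose, 2 fell and 2 did not pass the test, with a median of 0.37. Of all tested genes, 20.8% rose and 24.6% fell. Ctla4 went from 46.9 ± 2.56 to 75.9 ± 4.74 CPM, Pdcd1, which encodes the checkpoint receptor PD1, from 7.97 ± 0.712 to 15.6 ± 0.622 CPM, and Tigit from 4.13 ± 0.75 to 7.36 ± 1.4 CPM (SD, n = 3 each). The log2 fold change of Pdcd1 was 0.97 (adjusted p = 1.65e-07, standard error 0.11) in edgeR and that of Tigit 0.83 (adjusted p = 5.67e-04, standard error 0.18) in edgeR. Cd96, a receptor for Pvr, rose by 0.51 and Lag3 by 0.37. The Lag3 call was lost with DESeq2 (0.37), with the replicate number as a block (0.36) and in 5 of the 6 fits that left 1 library out. Its value was 0.21 without DB2313 replicate 2, between 0.33 and 0.40 without DB2313 replicate 1 or any 1 control library, and 0.53, still called, without DB2313 replicate 3. Havcr2 and Vsir, which myeloid cells also carry, fell by 0.35 and by 0.26 on the log2 scale. Relative to the T cell genes, 1 of the 9 was higher and 4 were lower, against 1.18% and 77.2% of all tested genes. The higher one was Pdcd1, at 0.38 (adjusted p = 0.00395 in edgeR). On that scale Ctla4 (0.11), Tigit (0.25), Cd96 (-0.075) and Lag3 (-0.22) did not pass the test.

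Of 10 other tested receptors that assist T cell activation, 2 rose (Tnfrsf25 by 0.34 and Slamf6 by 0.63) and 4 fell, with a median of -0.13. The rises were near the 20.8% of all tested genes that rose, and 24.6% of all fell. Those that fell were Tnfrsf14, at -0.77 (standard error 0.053), Tnfrsf1b, at -0.42 (standard error 0.032), Itgal, at -0.14 (standard error 0.032), and Il2ra, the interleukin-2 receptor chain induced by activation, at -0.15 (standard error 0.032). The calls of Itgal and Il2ra were lost with library size scaling, at -0.047 and -0.053, and that of Itgal also with upper quartile scaling, at -0.078. Relative to the T cell genes, 8 of the 10 were lower, against 77.2% of all tested genes, with Tnfrsf25 at -0.24. Slamf6, at 0.045 on that scale, did not pass the test.

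Genes that carry the signal of Cd28 and Cd2 moved in both directions. Of 15, 4 rose and 6 fell, with a median of -0.077, where 20.8% of all tested genes rose and 24.6% fell. Prkcq, the protein kinase C of the T cell synapse, rose from 136 ± 2.99 to 197 ± 0.597 CPM (SD, n = 3 each), with a log2 fold change of 0.54 (adjusted p = 1.14e-11, standard error 0.036) in edgeR. Grap2 and Fyn, an adaptor and a kinase of T cells, rose by 0.33 and 0.32. Relative to the T cell genes, 14 of the 15 were lower, against 77.2% of all tested genes, with Grap2 at -0.26 and Fyn at -0.27. Prkcq, at -0.047 on that scale, did not pass the test. Grb2, an adaptor that binds the tail of Cd28, fell by 0.30 and Pik3r1, the regulatory subunit of phosphatidylinositol 3-kinase, by 0.37 on the log2 scale. The calls of Lcp2 (0.11) and Cd2ap (-0.14) were lost with DESeq2 (0.11 and -0.13) and in 4 of the 6 fits that left 1 library out. These were for Lcp2 the fits without control replicate 1 or 3 or DB2313 replicate 2 or 3 (0.093 to 0.10), and for Cd2ap those without control replicate 1 or 2 or DB2313 replicate 1 or 3 (-0.15 to -0.093). The Cd2ap call was also lost with library size scaling (-0.041), upper quartile scaling (-0.071), the replicate block (-0.13) and no filter on low counts (-0.13). Of 11 genes of the TRAF and NF-κB branch, on which the TNF receptor family acts, 7 fell and 1 rose, with a median of -0.28. Relb and Rel, which encode NF-κB subunits, fell from 182 ± 9.92 to 120.1 ± 7.53 CPM and from 176 ± 11.3 to 129 ± 4.01 CPM (SD, n = 3 each). Their log2 fold changes were -0.60 (standard error 0.046) and -0.46 (standard error 0.044). Nfkb2 fell by 0.38, Nfkb1 by 0.28, Birc3, a ubiquitin ligase of TRAF complexes, by 0.39 and Map3k14, the kinase of the noncanonical branch, by 0.29. Traf1, an adaptor of Tnfrsf9 and other members of the family, was at -0.023 (standard error 0.035) and did not pass the test. Of the 55 tested genes in the ligand, receptor and signalling lists together, 12 rose and 25 fell, against 20.8% and 24.6% of all tested genes. With library size scaling they were 17 and 19, against 4931 and 2852 of all 14883 tested genes. With upper quartile scaling they were 17 and 22, against 4319 and 3102. Relative to the T cell genes, 1 of the 55 was higher and 47 were lower, against 1.18% and 77.2% of all tested genes. Most of the signalling genes are also expressed outside T cells.

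**Figure D5:**
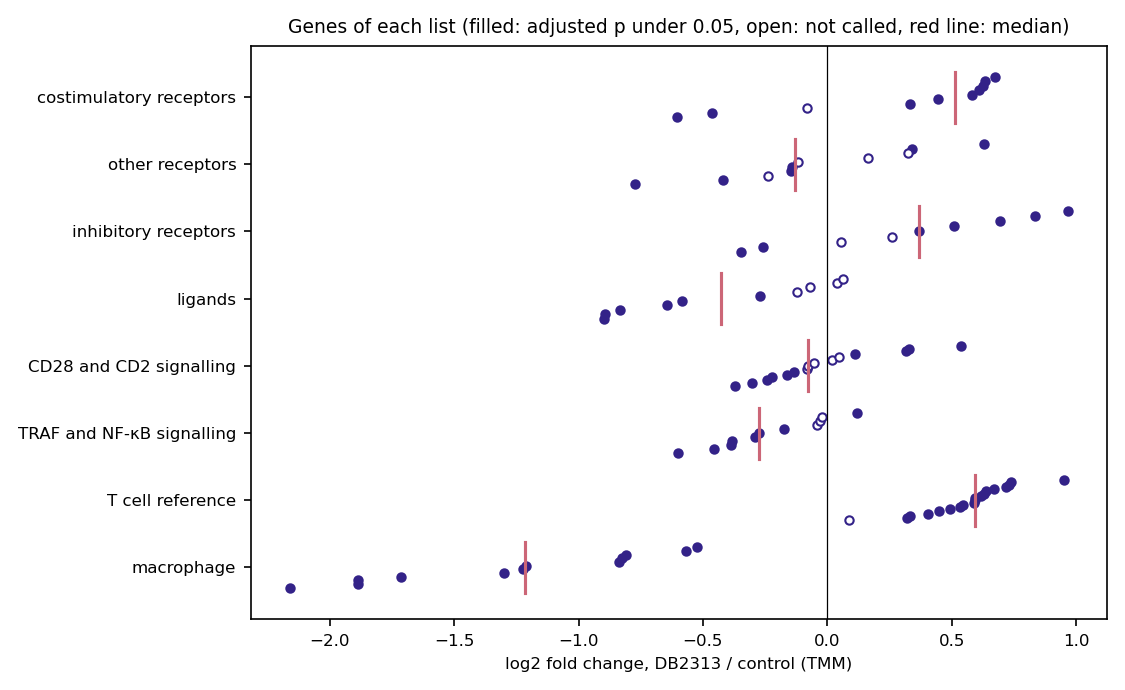
Log2 fold change (DB2313 over control, TMM) of each tested gene of the receptor, ligand and signalling lists and of the T cell and macrophage lists, with filled points for an adjusted p below 0.05, open points for genes not called, and a red line at each median. The 12 macrophage genes all lie below 0, the medians of the ligands (-0.43) and of the TRAF and NF-κB genes (-0.28) are negative, and those of the costimulatory receptors (0.51) and inhibitory receptors (0.37) are positive.

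Markers of other cells that can carry these receptors moved between the groups as well, where 20.8% of all tested genes rose and 24.6% fell. The 12 macrophage genes summed to between 10308 and 10602 CPM in the control libraries and between 3309 and 3438 CPM in the DB2313 libraries, a movement in the direction of Tnfrsf9 and Cd44. Lyz2 alone made up most of these sums, at a mean of 7702 CPM in the control and 2084 CPM in the DB2313 libraries. The log2 fold changes of the 12 genes ran from -2.16 to -0.52. Of 8 neutrophil genes, 7 fell and 1 rose, and their sum went from between 1619 and 1628 CPM to between 400.004 and 437 CPM. Of 5 tested dendritic cell genes, 3 fell and 1 rose, their sum went from between 180 and 187 CPM to between 83.3 and 90.6 CPM, and Siglech was at 0 in every library. Markers that moved with the 7 receptors that rose were those of natural killer cells, which carry Cd226, Cd27 and Cd2, with 3 of 4 tested genes higher and sums from 9.81 to 11.9 CPM in the control libraries and from 17.1 to 19.7 CPM in the DB2313 libraries, and those of megakaryocytes, which carry Cd226, with 4 of 4 tested genes higher, sums from 247 to 253 CPM against 394 to 424 CPM, and Gp1bb at 0 in every library. Of 6 genes of CD4 and regulatory T cells, which carry Icos, Tnfrsf4 and Tnfrsf18, 4 rose and 1 fell, with sums from 716 to 738 CPM against 829 to 835 CPM. Of 6 B cell genes, 3 rose and 1 fell, with sums from 48.1 to 52.5 CPM against 62.8 to 63.7 CPM. The part of these cells in the receptor results was not tested. Both Cd8a and Cd4 were counted in every library, at 119 ± 3.91 and 172 ± 10.2 CPM for Cd8a and 213 ± 2.51 and 294 ± 4.58 CPM for Cd4 (SD, n = 3 each). Cd4 was thus above Cd8a in both groups, though the study's methods describe isolated CD8T cells. Per length, Cd4 was at 52.8 and 72.9 RPKM and Cd8a at 32.6 and 47.2 RPKM in the control and DB2313 groups. Cd8b1, the other CD8 chain, was above Cd4 per length, at 72.4 and 112 RPKM. In CPM Cd8b1 was below Cd4, at 107 and 166.

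The genes whose centred log2 CPM over the 6 libraries lay nearest to those of Cd27 were Asns, Irf7 and Ptprcap, among 9225 protein-coding genes of at least 10 CPM outside the lists, at root mean square distances of 0.014, 0.024 and 0.025. Nearest to Cd44 were Mgat4a, Nek6 and Fam234a, at 0.021, 0.022 and 0.022. With 6 libraries in 2 groups, such a distance mostly compares the difference between the groups.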

How the data were processed

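The 6 libraries (3 control, 3 DB2313) came as a table of deposited raw read counts per gene, which the authors made. The study's methods name LifeScope for alignment and counting, whereas the submitters' processing notes list CASAVA 1.8, HISAT2 2.0.5 and featureCounts 1.5.0-p3 without a role. Genome build, annotation and strand setting are not given in the sources used here. Counts were filtered with filterByExpr, TMM-normalised and tested with edgeR 4.0.16 (glmQLFit, glmQLFTest, R 4.3.3) across 14883 genes with Benjamini-Hochberg adjustment, and the fits were tested on simulated data. The study used DESeq2, which was an alternative here (1.42.0). A separate fit replaced library sizes by the summed counts of 19 T cell genes. Intervals are 95%. The common biological coefficient of variation was 4.67%. The deviations of same-numbered libraries correlated between -0.0039 and 0.019. With 3 libraries a group, such values cannot show whether same-numbered samples shared a culture, and the main fit did not pair them. The receptors and gene lists were chosen with earlier results of these data known. The 10 receptors, the genes of the fixed ligand, receptor and signalling lists, markers beside a result and the 3 genes nearest in pattern to the receptors with the largest and smallest fold change were named. The promoter patterns were chosen during the work, with the results known. Alternatives were scaling, filters, replicate block, fold threshold, DESeq2, reference genes and leaving out each library.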

Additional observations from a re-analysis of the deposited data

How the results depend on the processing

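The receptor counts of 7 higher and 2 lower held with DESeq2, both other count filters, library size, upper quartile and RLE scaling, the replicate block (the replicate number as a factor) and without each library in turn (7 to 7 and 2 to 2). With libraries scaled to the T cell genes they were 1 and 5, and with a log2 fold change above 1 also required they were 0 and 0. Relative to the T cell genes, the single higher receptor became 0 without the low-count filter, with the replicate block, with the fold threshold, and with Cd3d, Cd3e, Cd3g and Cd247 or Cd8a and Cd8b1 as reference, and ranged from 0 to 1 without each library. The 5 lower receptors became 2 with the fold threshold and ranged from 4 to 5 without each library. The 12 higher and 25 lower genes of the other lists became 0 and 0 with the fold threshold and 11 and 24 with the replicate block, and ranged from 10 to 12 and from 23 to 26 without each library.

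Signs turned under T cell scaling for Icos (-0.14), Tnfrsf4 (-0.25) and Cd2 (-0.0019). With the Cd3 genes as reference, Cd28 (-0.015), Tnfrsf18 (-0.038) and Cd226 (-0.022) turned, and with the Cd8 genes Cd2 (0.0022). Without 1 library on the T cell scale, Tnfrsf18 ranged from -0.011 to 0.061, Cd226 from -0.020 to 0.099 and Cd2 from -0.035 to 0.019. With library size scaling Cd69 (0.013), Cd80 (0.026), Vav1 (0.018), Malt1 (0.041), Pstpip1 (0.012), Traf1 (0.072), Traf2 (0.063) and Traf5 (0.053) turned, and with upper quartile scaling Malt1 (0.010), Traf1 (0.041), Traf2 (0.033) and Traf5 (0.022). Traf1 ranged from -0.039 to 0.0064 without each library. The log2 ratio of Cd28 to Ctla4 ranged from -0.13 to 0.012 without each library. The cause was not tested.

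Limits are the 3 libraries a group, whose origin in separate cultures is not stated, the exact permutation tests, which cannot go below 0.1, and counts made without a stated strand. Genes with few counts, such as Tigit, Lag3 and Cd70, had wider errors than the receptors.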
